A study of Mus musculus with 7 samples.

Results

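Total bone marrow of mice was compared here between 4 samples named WTO (WTO.3, WTO.4, WTO.5 and WTO.6) and 3 samples named WTY (WTY.3, WTY.4 and WTY.5), out of 20 samples in the series. The samples were chosen by their hashtag names alone, and they hold 12295 of the 43024 cells kept. By its title, the series is about how inflammation bears on tumour plasticity in myeloid transformation. Marrow from spine, hips, femur and tibia had its red cells lysed, each sample was marked with an antibody that carries an oligonucleotide tag (a hashtag), and several samples at a time were loaded on a droplet instrument for 3′ sequencing, in 7 libraries that form 4 pools. The labels do not state what the letters WTO and WTY stand for, and they give no strain, age, genotype, sex or treatment for either group, so none is assigned here. Pool WBM_1 held WTO.3 and WTY.3, WBM_2 held WTO.4, WBM_3 held WTY.4 and WTY.5, and WBM_4 held WTO.5 and WTO.6. WBM_1 is thus the only pool with both groups. No label ties a hashtag to an animal of its own. The p-values below therefore reflect variation among hashtags, part or all of which may be technical.

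Bone marrow makes all blood lineages from stem and progenitor cells. Granulocyte-monocyte progenitors become immature neutrophils, which fill secondary granules with proteins such as lactoferrin (Ltf) and lipocalin 2 (Lcn2), and then mature neutrophils, which carry the chemokine receptor Cxcr2 and wait in the marrow for release. B cells also arise there, through pro-B and pre-B stages that rearrange their immunoglobulin genes.

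The 7 samples held 928 (WTY.4) to 3451 (WTO.4) cells and 2679390 (WTY.4) to 19737642 (WTO.4) unique molecular identifiers (UMIs, counted RNA molecules). The median cell had 1589 to 2560 UMIs in WTY samples and 1953 to 5729.5 in WTO samples. The ranges overlapped, and within WBM_1 the WTO sample was the shallower. Ddx3y, a Y-linked gene, was expressed in 3 of 4 WTO and 2 of 3 WTY samples, and WTO.3 and WTY.3, the pair that shares a pool, differed in it. Over all cells, Xist, an X-linked gene, is given in CPM (counts of a gene relative to the summed UMIs, not scaled further). WTO.3 held Ddx3y at 41.7 and Xist at 66.6 CPM. Xist stood at 2.68 to 4.68 CPM in the other Ddx3y-positive samples of these groups, and at 776 in WTY.3 and 807 in WTO.4. HRY.4 and HRO.6 of WBM_1 also held both genes, with Xist at 63.1 and 44.5 CPM. Whether WTO.3 holds RNA or cells of another sample was not tested. Each cell was given to a class by its score on marker genes, and 90.2% of gated cells of the series lay in a Leiden cluster of the same class. In the 7 samples this gave 3072 mature neutrophils, 3840 immature neutrophils, 2196 monocytes, 1122 B lineage cells, 581 progenitors and 303 T and NK cells, while 572 cells stayed unassigned. A class name means only that the markers resemble that class. Cxcr2 had a UMI in 88.6% of mature neutrophils and in 1.43% of B lineage cells, with median depths of 1645 and 1207 UMIs per cell, and the B cell marker Ms4a1 in 0.521% and 44.3% of them. The free RNA that such low shares can come from was not removed. Cells whose best score led the next by under 0.1 numbered 145 among mature neutrophils and 18 among B lineage cells.

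Monocytes, the circulating precursors of macrophages, made up less of the marrow in every WTO sample than in any WTY sample. Their share of kept cells was 17.1% in WTO.3, 14.1% in WTO.4, 7.03% in WTO.5 and 6.76% in WTO.6, against 19.6% in WTY.3, 24.4% in WTY.4 and 35.9% in WTY.5. The mean was 11.2% ± 5.16 (SD, n = 4) in WTO and 26.6% ± 8.35 (SD, n = 3) in WTY. The groups did not overlap, but within pool WBM_1 the difference was that between 17.1% and 19.6%. T and NK cells, the marrow's lymphocytes outside the B lineage, also did not overlap, in the other direction. Their shares were 3.44%, 3.54%, 1.81% and 2.86% in WTO.3 to WTO.6, and 1.71%, 1.29% and 1.64% in WTY.3 to WTY.5. The gap between the nearest samples, WTO.5 and WTY.3, was within their exact 95% binomial intervals of 1.07% to 2.84% (18 cells) and 1.28% to 2.24% (52 cells), which cover counting error only. For both classes the exact two-sided permutation test gave p = 0.0571, the smallest that the 35 possible assignments allow, and the adjusted p over 12 classes was 0.343. No class could therefore pass the threshold of 0.05 in this design.

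**Figure D1:**
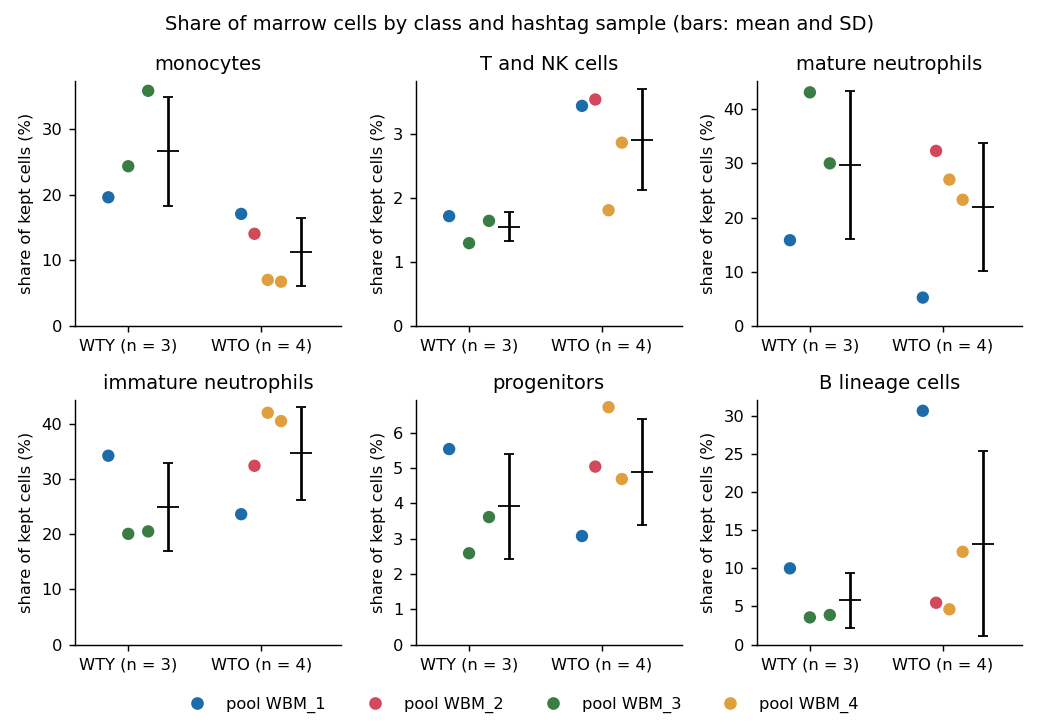
Share of kept cells (percent, vertical axis) in 6 classes for the 3 WTY and 4 WTO samples; each point is a hashtag sample coloured by pool, and bars give the mean and SD. Monocyte shares of the WTO samples (6.76% to 17.1%) lie below all WTY samples (19.6% to 35.9%), T and NK shares lie above, and the other 4 classes overlap.

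The other classes overlapped between the groups. Mature neutrophils made up 22.0% ± 11.7 of WTO and 29.6% ± 13.6 of WTY cells (exact permutation p = 0.514), and WTO.3 was the lowest at 5.24%, with 58 cells. The difference of -7.68 percentage points became -0.533 with at least 500 genes per cell, -0.953 without WTY.4, -2.11 without WTO.3 and -14.6 without WTY.3. Immature neutrophils made up 34.6% ± 8.46 and 24.9% ± 8.04 (exact permutation p = 0.171). In that class the pools ran against the means, since WTO.3 had 23.6% and WTY.3 of the same pool 34.2%. Progenitors made up 4.88% ± 1.498 and 3.91% ± 1.499. B lineage cells were 13.2% ± 12.1 of WTO and 5.81% ± 3.63 of WTY cells (exact permutation p = 0.286), and this mean rests on WTO.3 with 30.7%, against 4.62% to 12.2% in the other 3 WTO samples. Pro-B and pre-B cells made up 47.7% ± 15.003 of the B lineage cells in WTO and 48.4% ± 18.3 in WTY, with 26.5% to 59.5% and 28.8% to 65.0% in single samples. The direction of that last difference turned when WTY.3, WTY.4 or WTO.4 was left out.

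Gene by gene, UMI counts were summed per sample and class and compared by edgeR's quasi-likelihood test, with p-values adjusted by the Benjamini-Hochberg method over all genes. The fit held WTO, WTY and the 3 other groups of the series (HRY, HRO, and a pair of chronic samples, HRO.5 and HRO.6, described by the submitters as TET2-mutated), with pool as a term. The other groups tie the pools together, because WTO and WTY share WBM_1 alone. HRY samples lie in WBM_1 and WBM_3, the chronic pair in WBM_1, and HRO samples in WBM_2, WBM_4 and, with HRO.10 alone, WBM_3. WTO.4, WTO.5 and WTO.6 are thus linked to the WTY samples only through WTO.3 or through the single sample HRO.10. Levels are in CPM, counts of a gene relative to the summed UMIs, scaled by the TMM method of edgeR, unless stated otherwise. Each fold is the log2 fold change of WTO over WTY with a standard error. That error was derived from the test, as the size of the fold over the square root of its F statistic. It is not a fitted value, and is a rough guide where a group held 0 UMIs. In mature neutrophils 7 of 5594 genes tested passed the threshold of an adjusted p under 0.05, which is 0.125%, and all 7 were lower in WTO. The 6 described here are the long non-coding RNA Gm35082, the cell death gene Pmaip1, the cholesterol transporter Abcg1, the transcription factor Egr1, the lysosomal cofactor Gm2a and the fibrinogen-like gene Fgl2. Without any adjustment 457 genes had p under 0.05, 136 of them higher and 321 lower in WTO, and DESeq2 called 11 genes, which include all 7. Over the whole series, the Leiden clusters of mature neutrophils differed in their pools. Of cells in the 3 such clusters, the first drew 61.4% from WBM_3 and 2.97% from WBM_4, the second 56.6% from WBM_4 and 2.16% from WBM_3, and the third 98.0% from WBM_1. In the third, 48.7% of cells were gated to this class by their markers. The part of these differences in the calls was not tested.

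Gm35082 had the smallest adjusted p of the 7 and was the only one whose groups did not overlap. It was outside the rule for named genes, which leaves out Gm names, and is given because it passed. It is annotated as a long intergenic non-coding RNA on the plus strand of chromosome 7, from 100675088 to 100677760 (GRCm38, GENCODE annotation, ENSMUSG00000108866). RefSeq gives it 3 start sites, which lie before the start in GENCODE. The window around the first of them is shown because this gene separated the groups, although 3′ counts do not tell which start was used (GRCm38.p6, chr7:100674757-100675056, plus strand, 5′ to 3′). Capitals mark the 50 bases from the start site on.
Gm35082 start region: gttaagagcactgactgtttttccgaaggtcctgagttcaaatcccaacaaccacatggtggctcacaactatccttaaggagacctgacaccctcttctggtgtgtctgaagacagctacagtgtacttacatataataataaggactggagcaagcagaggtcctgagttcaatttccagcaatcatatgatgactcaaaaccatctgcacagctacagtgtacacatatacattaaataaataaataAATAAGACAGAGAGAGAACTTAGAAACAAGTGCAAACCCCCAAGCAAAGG

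In mature neutrophils Gm35082 had 10 UMIs in WTY.3, 22 in WTY.4 and 26 in WTY.5, and 0 in each of the 4 WTO samples. As CPM this was 18.9, 34.1 and 36.8 in WTY, so every WTY sample was above every WTO sample. The 4225907 UMIs of WTO mature neutrophils allow at most 0.71 CPM (3 counts over the group). The WTY mean without TMM scaling was 38.9 ± 22.99 (SD, n = 3). Over the 4 WTO samples pooled, the level was thus at least 54.8-fold lower. This bound does not hold for single WTO samples. WTO.4 supplied 2309586 of the UMIs and alone allows up to 1.30 CPM, while WTO.5 and WTO.6 supplied 891112 and 942793. The adjusted p was 0.00622 (edgeR's quasi-likelihood test). WTO.3 adds little to this, since its 82416 UMIs allow up to 36.4 CPM. The block on the replicate number left it past the threshold, at an adjusted p of 0.0117 in edgeR, and so did the fit without the pool term (0.0093). It did not pass without WTO.4 (fold -8.24, adjusted p = 0.0524) or with the 7 samples alone (-7.74, 0.0637), nor with classes from Leiden clusters, where the fold was smaller (-4.53, 0.461).

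The same gene was compared over all cells of each sample, which gives more depth. In CPM without TMM scaling it stood at 6.62 in WTY.3, 14.2 in WTY.4, 16.1 in WTY.5 and 6.15 in WTO.3. It had 0 of 19737642 UMIs in WTO.4, 0 of 8949784 in WTO.5 and 2 of 9408173 in WTO.6. WTO.3 thus stood with WTY.3 of its own pool, and the 3 other WTO samples stood apart from it. A count of 0 allows up to 0.152 CPM in WTO.4 and 0.335 in WTO.5. In the 16 further samples without HR.AE, WTY and WTO.3 included, the lowest level was 0.811 CPM. That was HRY.4, with 7 UMIs, low beside WTY.3 and WTO.3 of its own pool WBM_1. HRY.4 had 0 UMIs in mature and immature neutrophils, where its depth allows up to 13.2 and 1.15 CPM. Low levels were thus not particular to WTO samples. HR.AE, a sample in no group, had 2 UMIs. The HRO samples of the pools that hold WTO.4, WTO.5 and WTO.6 carried it, with 178 to 524 UMIs in WBM_2 and 107 and 109 UMIs in WBM_4. HR.AE is also of WBM_2. The fold over all cells was -3.04 ± 1.46 and did not pass (adjusted p = 0.768, edgeR's quasi-likelihood test). In monocytes it was -6.61 ± 1.20 (adjusted p = 0.452 in edgeR), with 16, 8 and 29 UMIs in WTY.3 to WTY.5, 1 in WTO.3 and 0 in the other 3. DESeq2 called it in monocytes. Among 31053 genes, Gm35082 was the only one with at most 3 UMIs over WTO.4 to WTO.6 together and at least 10 in each WTY sample. This rule was set after its values were seen. The reverse pattern, at most 3 UMIs over the WTY samples and at least 10 in each of WTO.4 to WTO.6, was found for Ighv1-41, Rassf10 and Timp3.

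**Figure D2:**
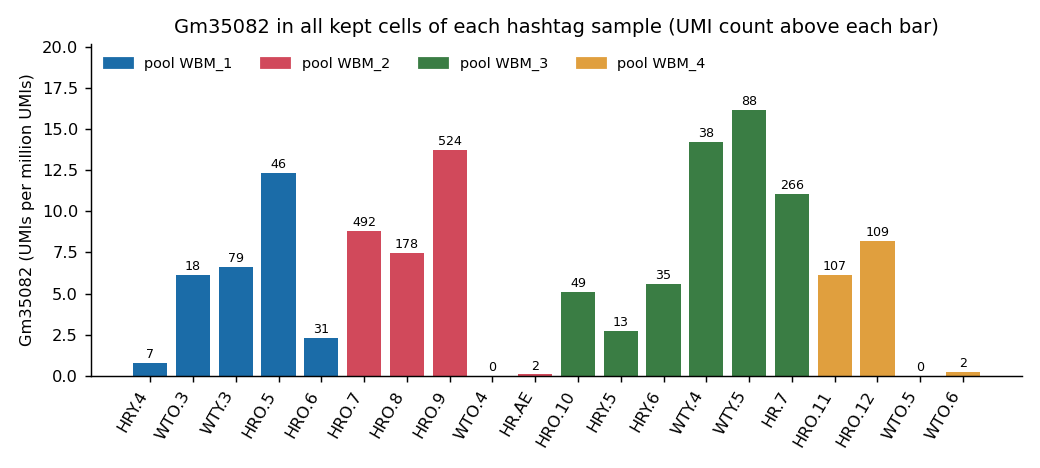
Gm35082 in all kept cells of each of the 20 samples, in CPM without TMM scaling (vertical axis), coloured by pool, with the UMI count above each bar. WTO.4, WTO.5 and WTO.6 hold 0, 0 and 2 UMIs, while WTO.3 holds 18 and the WTY samples 38 to 88.

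The other 5 genes described were lower in WTO by the fit, but their groups overlapped. Gm2a, the activator protein that presents GM2 ganglioside to its hydrolase in lysosomes (chromosome 11, 55098115 to 55113029), stood at 53.05, 248 and 199 CPM in WTY.3, WTY.4 and WTY.5 and at 28.6, 119, 96.2 and 96.5 CPM in WTO.3 to WTO.6. Only WTY.3 lay within the WTO range. Within the shared pool WTO.3 was below WTY.3, but on 2 UMIs against 28. The fold was -2.28 ± 0.37 (adjusted p = 0.0165, edgeR's quasi-likelihood test). Fgl2, a fibrinogen-like protein made by myeloid and T cells (chromosome 5, 21372642 to 21378374), stood at 100.4, 578 and 468 CPM in WTY and at 42.9, 231, 102 and 96.5 CPM in WTO. WTY.4 and WTY.5 were above all WTO samples and WTY.3 was level with WTO.5 and WTO.6. The value of WTO.3 rests on 3 UMIs. The fold was -1.85 ± 0.34 (adjusted p = 0.0335 in the same edgeR test).

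Abcg1, a transporter that moves cholesterol out of cells (chromosome 17, 31057675 to 31117988), stood at 20.8, 65.1 and 50.9 CPM in WTY and at 0, 37.4, 24.3 and 23.2 CPM in WTO. Its fold was -3.58 ± 0.61 (adjusted p = 0.0165 in edgeR), and WTY.3 lay again within the WTO range. WTO.3 held 0 UMIs and WTY.3 11. At the depth of WTO.3 a count of 0 allows up to 36.4 CPM without TMM scaling, so this pair cannot be ordered. Pmaip1, which encodes the BH3-only protein Noxa that promotes cell death at mitochondria, stood at 5.68, 60.4 and 69.3 CPM in WTY and at 14.3, 7.31, 14.6 and 9.77 CPM in WTO. WTY.4 and WTY.5 were far above all others and WTY.3 was the lowest of the 7. Its fold was -4.74 ± 0.80 (adjusted p = 0.0165 in edgeR), while in pool WBM_1 the pair rests on 3 UMIs in WTY.3 and 1 in WTO.3.

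Egr1, a zinc finger factor that cells induce within minutes of a stimulus, is the only one of these 6 genes whose fold changed sign between settings. It stood at 3.79, 115 and 120.2 CPM in WTY and at 0, 82.9, 181 and 125 CPM in WTO, with means of 79.6 ± 65.7 and 97.2 ± 76.4 (SD). In pool WBM_1 these values rest on 2 UMIs in WTY.3 and 0 in WTO.3. The mean was thus higher in WTO, and the fitted fold with the pool term was -2.44 ± 0.46 (adjusted p = 0.0335, edgeR's quasi-likelihood test). Without the pool term the fold was 0.46, and with the block on the replicate number 0.02. Neither passed.

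**Figure D3:**
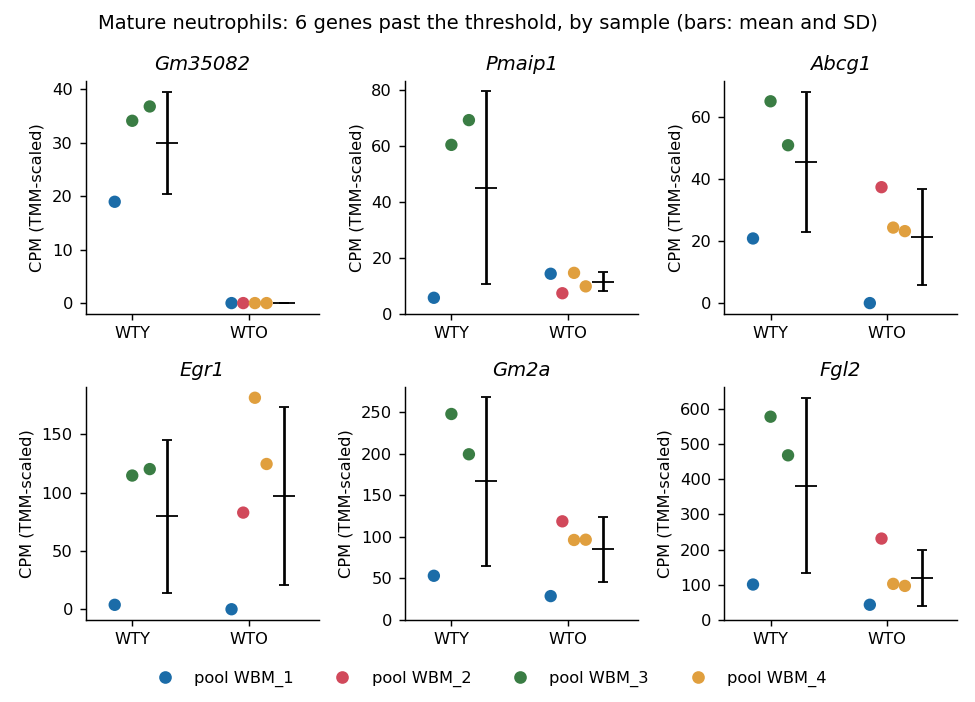
CPM (TMM-scaled, vertical axes) in mature neutrophils of 6 genes past the threshold; each point is a hashtag sample coloured by pool, and bars give the mean and SD. Gm35082 alone separates the groups without overlap, at 0 in all WTO samples, and WTY.3 of pool WBM_1 lies with or near the WTO samples for the other genes.

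These calls rest on few samples. With the replicate number as a block and the 7 samples alone, 8 genes passed in mature neutrophils, 1 higher and 7 lower, and Gm35082 was the only one of the 7 among them. The block gave folds of -2.56 for Pmaip1, -1.01 for Abcg1, -1.06 for Gm2a and -1.70 for Fgl2. Without the pool term 1 gene passed. Leaving out WTY.4 or WTY.5 left 1 gene, leaving out WTO.4 left 3, and leaving out WTO.3 gave 21, 12 higher and 9 lower. Without WTO.3 no pool holds both groups, and every fold of WTO over WTY passes through HRO.10. The folds were then -5.48 for Pmaip1, -3.55 for Abcg1, -2.40 for Gm2a, -1.95 for Fgl2 and -2.44 for Egr1, so the calls rest largely on that sample. Markers of dendritic and erythroid cells summed higher in the mature neutrophils of every WTY sample than of any WTO sample. Summed over 8 dendritic cell markers, all detected, WTY samples had 89.2 to 116 CPM without TMM scaling and WTO samples 12.7 to 35.9. Itgax, which is in that list and which neutrophils can also express, stood at 60.4 CPM in WTY.4 and 53.7 CPM in WTY.5, and at no more than 7.58 CPM in the other 5. Erythroid markers summed to 1877 to 2064 CPM in WTY on the same scale and 32.9 to 1456 in WTO, with 11 of 11 detected. The 14 B lineage markers reached 607 in WTO.3 and 204 in WTY.3. Markers of immature neutrophils summed to 5605 to 14833 in WTY and 13735 to 18147 in WTO, and those of mature neutrophils to 36548 to 67033 and 63881 to 71734. The part of these RNAs in the 7 calls was not tested.

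**Figure D4:**
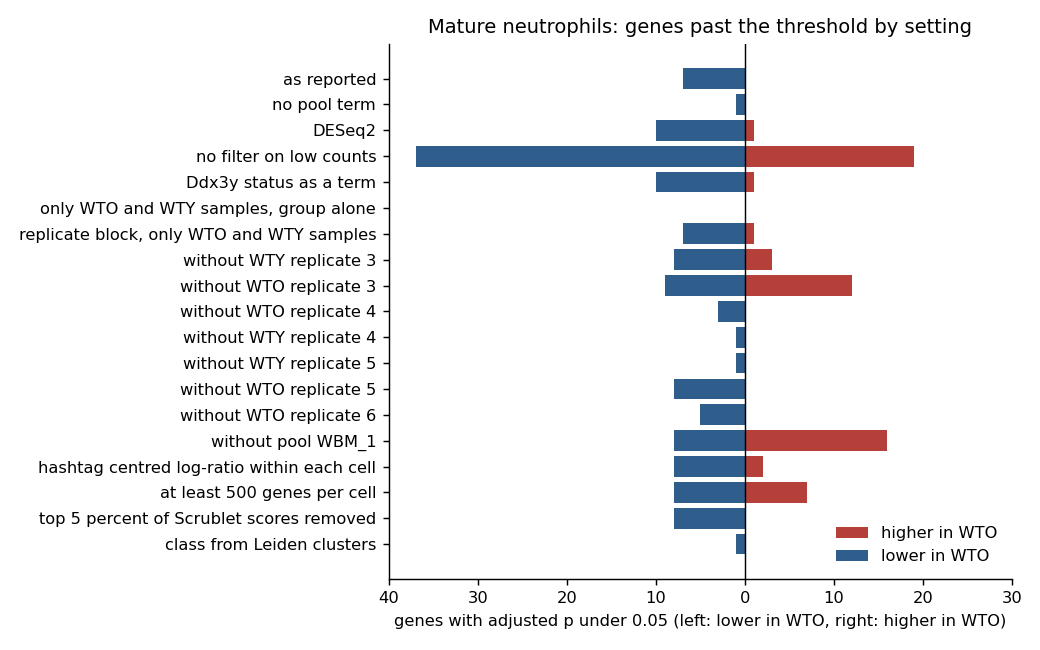
Number of genes past the threshold in mature neutrophils under each setting (horizontal axis, lower in WTO to the left and higher to the right). The 7 lower genes became 0 with the 7 samples alone and 1 without the pool term, WTY.4 or WTY.5, and 16 higher genes appeared without pool WBM_1.

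Without pool WBM_1, a setting chosen after the data were seen, 24 genes passed in mature neutrophils, 16 higher and 8 lower. No pool then holds both groups, and the HRO samples alone tie WTO to WTY. WBM_3, the pool of WTY.4 and WTY.5, has a single HRO sample, HRO.10. Every fold in this setting passes through that sample, and its standard error does not cover what is particular to it. Of 18 secondary and tertiary granule genes tested 4 passed in this setting, with a median fold of 1.24 against -0.05 for all genes. Of the 16 higher genes, 3 known from neutrophils are given, chosen after their values were seen. Cd177, a surface partner of proteinase 3, stood at 798, 169 and 192 CPM in WTY.3 to WTY.5 and at 614, 641, 601 and 709.6 CPM in WTO.3 to WTO.6. Ly6g, the surface antigen used to sort mouse neutrophils, stood at 879, 163 and 211 CPM in WTY and at 514, 827, 836 and 745 CPM in WTO. Lcn2, the siderophore-binding protein of secondary granules, stood at 7897, 1398 and 1683 CPM in WTY and at 5456.5, 6169, 6754 and 8561 CPM in WTO. In all 3, WTY.4 and WTY.5 were below each of the other 5 samples. WTY.3 was above every WTO sample for Cd177 and Ly6g, within the WTO range for Lcn2, and above WTO.3 of its own pool for all 3. With WBM_1 in the fit the folds were 1.002 ± 0.36 for Cd177, 0.80 ± 0.38 for Ly6g and 0.68 ± 0.35 for Lcn2, with adjusted p of 0.404, 0.602 and 0.622 in edgeR's test. Without it they were 2.06 ± 0.28, 1.98 ± 0.30 and 1.79 ± 0.28, with adjusted p of 0.0048, 0.00818 and 0.0104.

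Gene lists in mature neutrophils are described by counts and medians beside all genes tested, whose median fold was -0.08. At an unadjusted p under 0.05, 321 of all 5594 genes were lower and 136 higher. Of the 16 immediate early genes tested, which encode the AP-1 factors and their partners, 1 passed (Egr1), 10 were lower at an unadjusted p under 0.05 and none was higher, with a median of -0.83. The sign of that median turned without the pool term (0.47) and with the 7 samples alone (0.45), and with the replicate block it was -0.08. Fos, an AP-1 subunit, stood at 371, 874 and 595 CPM in WTY and at 171, 459, 1859 and 1429 CPM in WTO, where both WBM_4 samples exceeded every WTY sample, and its fold with the pool term was -1.61 ± 0.50 (adjusted p = 0.349 in edgeR). Of 30 effector genes of mature neutrophils, 0 passed, 10 were lower at an unadjusted p under 0.05, and the median was -0.40 (0.25 without the pool term). DESeq2 called 1 of them. Nfkbia, the inhibitor that holds NF-kB in the cytoplasm, had the smallest p among them, and its groups did not overlap. It stood at 322, 451 and 296 CPM in WTY.3 to WTY.5 and at 114, 195, 187 and 225 CPM in WTO.3 to WTO.6, a fold of -2.05 ± 0.43 (adjusted p = 0.0775 in edgeR). In this class 6.38% of all genes had groups that did not overlap. Of 16 NF-kB and inflammatory cytokine genes, which include Nfkbia, 0 passed in edgeR, DESeq2 called 1 and 4 were lower at an unadjusted p under 0.05, with a median of -0.88 (0.18 without the pool term). Of 18 secondary and tertiary granule genes 0 passed and 3 were higher at that level, with a median of 0.48 that stayed above 0 in all 18 alternatives.

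Type I interferon-stimulated genes, which cells induce against viruses, had fitted medians above 0 in WTO over WTY, and without the pool term the medians were below 0 except in monocytes. None of these genes passed the threshold. Over all cells of the marrow, 0 of 27 passed in edgeR, 16 were higher and 0 lower at an unadjusted p under 0.05, where 395 of all 12785 genes were higher and 455 lower. The median fold was 0.87 against 0.01 for all genes. DESeq2 called 1 of them, and 0 in the 3 classes that follow. In monocytes 0 of 26 passed and 13 were higher at that level, with a median of 0.95, where 234 of all 10142 genes were higher. In immature neutrophils the median was 0.87 with 5 of 26 higher, beside 279 of 9832 genes. In mature neutrophils it was 0.52 with 2 of 26 higher, beside 136 of 5594 genes, again with 0 passing. Without the pool term the medians were -0.13, 0.16, -0.10 and -0.15 in the 4 classes in this order, and with the replicate block they were -0.04, 0.40, 0.14 and 0.05. With no filter on low counts 9 of 27 passed in monocytes, 6 in immature and 2 in mature neutrophils. The pair within WBM_1 differed by medians of 0.45, 0.62, 0.18 and -0.68.

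The member with the smallest p over all cells was Ifi27l2a, an interferon-induced mitochondrial protein. It stood at 785, 211 and 308 CPM in WTY.3 to WTY.5 and at 1267, 499, 104 and 64.2 CPM in WTO.3 to WTO.6. WTO.3 was the highest of all and WTO.5 and WTO.6 were the lowest, so the groups overlapped. Its fold was 1.80 ± 0.44 (adjusted p = 0.625 in edgeR). In monocytes it was Oas3, an enzyme that senses double-stranded RNA, at 30.1, 24.8 and 38.7 CPM in WTY and at 67.4, 30.3, 12.3 and 5.08 CPM in WTO. Its fold was 1.08 ± 0.23 (adjusted p = 0.823 in edgeR), and without the pool term it was -0.19. These members were picked for their p after the values were seen.

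**Figure D5:**
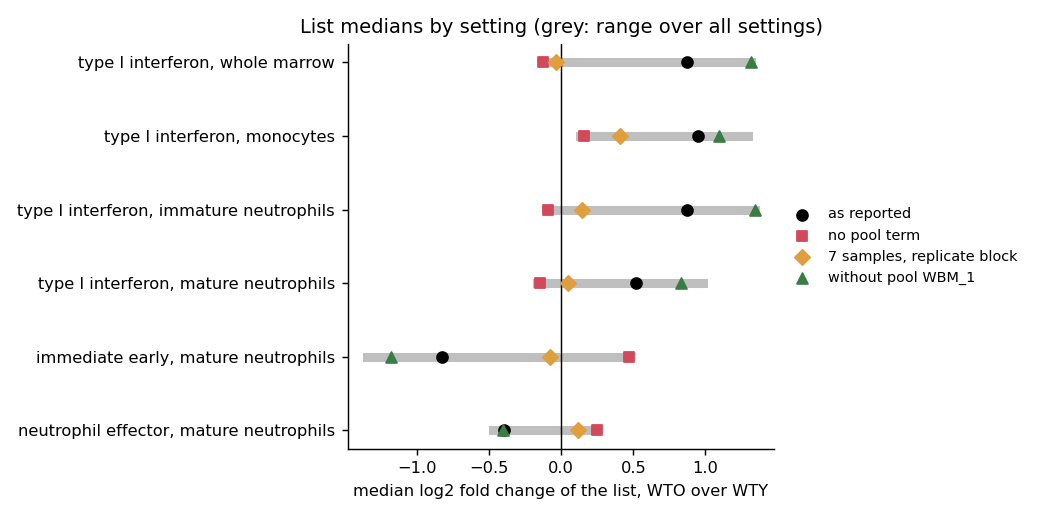
Median log2 fold change of WTO over WTY (horizontal axis) for the interferon list in 4 classes and for 2 lists in mature neutrophils; symbols mark 4 settings and the grey bar the range over all settings. The interferon median over all cells is 0.87 as reported and -0.13 without the pool term, and the immediate early median turns from -0.83 to 0.47.

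Over all cells of the marrow 1 of 12785 genes passed, or 0.00782%. In these sums, fewer cells of a type and less RNA per cell cannot be told apart. Col1a2 (under the level the naming rule asks for), a chain of type I collagen made by stromal cells and osteoblasts, stood at 76.3 CPM (685 UMIs) in WTY.3 and at no more than 1.26 CPM in the other 6, so its fold of -5.81 ± 0.75 (adjusted p = 0.0291 in edgeR) is that of 1 sample. Without WTY.3 it was -2.61 and did not pass (adjusted p = 0.679), and no gene passed. DESeq2 called 6 genes, 3 higher and 3 lower. Leaving out WTO.3, after which no pool holds both groups, gave 7 genes, 5 higher and 2 lower. Genes next in p, named by rule, did not pass. Msmo1, an enzyme of cholesterol synthesis, stood at 26.7, 27.9 and 21.3 CPM in WTY.3 to WTY.5 and at 34.3, 30.2, 29.9 and 30.5 CPM in WTO.3 to WTO.6, a fold of 0.82 ± 0.20 (adjusted p = 0.625 in edgeR). Its groups did not overlap, and 6.09% of all genes shared this. Myc, a growth-promoting transcription factor, had a fold of -1.19 ± 0.27 and stood at 18.1 to 37.0 CPM in WTY and 13.04 to 28.1 CPM in WTO. Ltn1, a ubiquitin ligase of stalled ribosomes, and Cdc25b, a phosphatase that starts mitosis, had folds of 0.52 ± 0.11 and 0.73 ± 0.17 and overlapped.

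No gene passed in monocytes, immature neutrophils or progenitors (0% of 10142, 9832 and 10053 genes tested). At an unadjusted p under 0.05, edgeR had 421, 628 and 527 genes in these classes, and DESeq2 called 1 gene in each. In monocytes Ldhb, G6pdx, Lipa and Oas3 were among the 5 genes of smallest p under the naming rule. Lipa, the lysosomal acid lipase that frees cholesterol from its esters, stood at 42.9, 30.4 and 45.8 CPM in WTY.3 to WTY.5 and at 53.9, 101.5, 78.9 and 63.4 CPM in WTO.3 to WTO.6. Every WTO sample was above every WTY sample, as in 5.94% of genes in this class, and the fold was 0.91 ± 0.22 (adjusted p = 0.823 in edgeR). G6pdx, which feeds the pentose phosphate pathway, and Ldhb, a subunit of lactate dehydrogenase, overlapped.

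In immature neutrophils 2 of the 5 genes next in p encode basophil proteases. Mcpt8 stood at 130 CPM in WTY.3, 19.1 in WTO.3 and at no more than 5.13 CPM in the other 5, and Prss34 at 125 CPM in WTY.3, 14.7 in WTO.3 and at most 3.87 elsewhere. Their fitted folds of -2.74 ± 0.54 and -3.05 ± 0.54 did not pass (adjusted p = 0.451 and 0.288 in edgeR) and turned positive without WTY.3. Cells gated as basophils made up 0.956% of WTY.3 and 0.633% of WTO.3, and 0.0657% to 1.41% of the other samples. The part of basophil RNA in these values was not tested. None of the 5 had groups without overlap, which 6.65% of genes in this class had. The other 3 were Msmo1 (0.95 ± 0.20), Ifi27l2a (2.06 ± 0.44) and Ccdc34 (-0.58 ± 0.13). In progenitors Lyz2, the lysozyme of myeloid cells, stood at 1120.5, 211 and 212 CPM in WTY and at 1325, 651, 620.4 and 582 CPM in WTO, a fold of 0.87 ± 0.22 (adjusted p = 0.89 in edgeR). WBM_1 was high in both groups, and WTY.4 and WTY.5 were below all others. Ptgr1, Cdan1, Dck and Tmed5 had similarly small p, and all 5 overlapped between the groups, while 4.83% of genes in this class did not.

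B lineage cells gave no call either, with 0% of 7118 genes and 110 genes at an unadjusted p under 0.05 in edgeR, and 1 gene by DESeq2. The B cells rest on 33 cells in WTY.4, 46 in WTO.5 and 59 in WTY.5, against 153 to 339 in the other 4 samples. Of 17 pro-B and pre-B genes 0 passed and none had an unadjusted p under 0.05, with a median fold of -0.16 against -0.03 for all genes. Vpreb3, a chaperone of the immature B cell receptor, stood at 3784, 1045 and 680 CPM in WTY.3 to WTY.5 and at 3782, 1316, 2302 and 2271 CPM in WTO.3 to WTO.6. The samples of the shared pool were level and the groups overlapped (-0.23 ± 1.41, adjusted p = 1 in edgeR). Of 19 mature B cell genes 0 passed, with none at an unadjusted p under 0.05 and a median of 0.12. Ms4a1, the surface protein CD20, stood at 824, 865 and 745 CPM in WTY and at 839, 1114, 421 and 414 CPM in WTO, a fold of -0.06 ± 0.62. Of 17 immunoglobulin and plasma cell genes 0 passed, with a median of 0.04. Genes next in p by rule included Cpox, Exosc10, Ccp110 and Fbxw5, with folds from -2.67 to 1.92, and these 4 overlapped, while 4.71% of genes in this class did not.

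The B lineage result changed when WTO.3 was left out, a setting in which no pool holds both groups. Then 108 genes passed, 5 higher and 103 lower, and 22 of the lower ones encode cytosolic ribosomal proteins, 23 subunits of the respiratory chain or ATP synthase and 3 globins. Rps28, a ribosomal protein, stood at 6325 CPM in WTY.3 and 6114 in WTO.3, both of WBM_1, at 2058 in WTY.4 and WTY.5 of WBM_3, at 1106 in WTO.4 of WBM_2 and at 1031 and 1017 in WTO.5 and WTO.6 of WBM_4. Gm42418, which overlaps ribosomal RNA repeats, went the other way, at 183 and 240.2 CPM in WBM_1, 27222 and 24384 in WBM_3, 10211 in WBM_2 and 4062 and 3519 in WBM_4. Rps28 was highest in WBM_1 and nearly level between WBM_2 and WBM_4, and Gm42418 was lowest in WBM_1 and highest in WBM_3. With all samples their folds were 0.03 ± 0.26 and 0.21 ± 0.45 (adjusted p = 1 for both in edgeR), and without WTO.3 they were -2.57 ± 0.21 and 4.04 ± 0.39. WTY.3 is then the only one of the 7 samples left in WBM_1. Of the other groups only HRO has samples in pools of both WTO and WTY, and HRO.10 is its only sample in WBM_3. With all samples, the fit of this class held 16. If HRO.10 is in the fit, every fold passes through it, and if not, group and pool are fully confounded. The 108 calls can therefore not be told apart from pool differences.

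T and NK cells could be compared over 3 WTO and 2 WTY samples, since WTO.5 and WTY.4 held 18 and 12 such cells and were left out under a minimum of 20. None of 2683 genes passed (0%), 117 had an unadjusted p under 0.05 in edgeR, and DESeq2 also called 0. Ikzf2, which encodes Helios, a factor of regulatory and activated T cells, stood at 91.4 CPM in WTY.3 and 189 in WTY.5, and at 749, 798 and 1076 CPM in WTO.3, WTO.4 and WTO.6. Its groups did not overlap, as for 16.1% of genes at this size, and the fold was 3.21 ± 1.22 (adjusted p = 0.9996 in edgeR). It was named after its values were seen. S100a4, a calcium-binding protein of memory T cells, stood at 366 and 772 CPM in WTY and at 26.8, 112 and 333 CPM in WTO (-1.91 ± 0.51, adjusted p = 0.9996 in edgeR). Nkg7 and Ccl5, genes of cytotoxic cells, overlapped with folds of -0.21 ± 0.59 and 0.09 ± 0.48. S100a4, Cdk6, Cab39, Ndufa1 and Wls are the 5 genes with the smallest p, and the last 4 rest on 1 to 14 UMIs in WTY.5. In WTO.3 S100a4 held 1 UMI, Cdk6 3, Cab39 6, Ndufa1 8 and Wls 13. Erythroid cells, plasma cells and dendritic cells could not be tested, because too few samples reached 20 cells.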

How the data were processed

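The authors deposited unnormalised UMI counts for each gene in each barcode, made with Cell Ranger 3.0.0 (WBM_1) and 3.1.0 (other pools), per the file headers. Genome build mm10, bcl2fastq and Seurat are named in the submitters' processing notes. Hashtags were assigned with HTODemux (Seurat 5.3.0, centred log-ratio over cells, quantile 0.99). Of 78720 barcodes 57944 were singlets, and 43024 had at least 300 genes and under 10% mitochondrial UMIs. The 2 libraries of WBM_3 shared 2078 barcodes, and 12 lower copies were removed. Doublets beyond those seen by hashtags were not removed, and removing the top 5% of Scrublet scores was an alternative.

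Cells were gated on the mean of their 5 highest scaled markers (score at least 0.3, lead at least 0.05), and Leiden clusters (scanpy 1.11.5) were an alternative. Counts of each class were added up within a hashtag sample (at least 20 cells) and fitted with edgeR 4.0.16 (R 4.3.3), with group and pool as terms, TMM scaling and filterByExpr. The fits held 18 samples, but 16 for B lineage cells and 15 for T and NK cells. DESeq2 1.42.0 was an alternative. The scripts were tested on simulated counts that held no pool differences, so this cannot show how well the fit separates group from pool. Shares were compared by exact permutation tests. Genes were named by this rule: per class, the 8 largest rises and falls among genes past an adjusted p of 0.05 with a mean of at least 20 CPM (no Gm or Rik names, immunoglobulin variable segments, mitochondrial or sex-linked genes), list members past it, and otherwise the 5 genes of smallest p. Some genes that the rule names are not reported here, though they stay in the fits and counts. The groups, members and lists were chosen with earlier results of these data known. Hashtag numbers 3, 4 and 5 occur in both groups. Deviations of like-numbered samples from their group means correlated at 0.313, 0.244 and 0.146 in mature and 0.412, 0.177 and 0.179 in immature neutrophils. Samples of unlike number were not compared, and only those of number 3 share a pool. These correlations therefore cannot show that the numbers mark pairs, and no label says so. The replicate block is given as an alternative only.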

Additional observations from a re-analysis of the deposited data

Results flagged for a closer look

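A sample stood apart from the other 3 WTO samples by Dixon's test in 4 gene and class pairs given here. Chance gives such a result in about 1 of 20 groups. The test was run on every class share and every named gene with values in all 4 WTO samples, so some such results are due to chance alone. WTO.3 was highest for Msmo1 over all cells at 34.3 CPM and in immature neutrophils at 66.0 CPM. In progenitors WTO.3 was highest for Lyz2 at 1325 CPM and for Dck at 61.7 CPM. WTO.3 is the only WTO sample of pool WBM_1. No cause of these values was tested.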

How the results depend on the processing

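In mature neutrophils the count of 7 genes became 1 without the pool term or with Leiden clusters, 0 with the 7 samples alone, 11 with DESeq2 or with Ddx3y status as a term, 56 with no filter on low counts, 15 with at least 500 genes per cell, 24 without pool WBM_1 (a setting chosen after seeing the data) and 1 to 21 with a sample left out. Over all cells the count of 1 became 0 without the pool term, with Ddx3y status, with the 7 samples alone, with the replicate block or with the centred log-ratio within each cell, 6 with DESeq2, 2 with at least 500 genes or without WBM_1, and 0 to 7 with a sample left out. The count of 0 in immature neutrophils became 1 with DESeq2, the replicate block or the centred log-ratio within each cell, 74 with no filter, 2 without WBM_1 and 0 to 4 with a sample left out. In progenitors it became 1 with DESeq2, the block or Leiden clusters and 30 with no filter, and in monocytes 1 with DESeq2 or without WBM_1, 2 with the block and 77 with no filter. In B lineage cells it became 1 with DESeq2 or no filter, 15 without WBM_1 and 0 to 108 with a sample left out, and in T and NK cells 3 with no filter. The counts of 21 in mature neutrophils, 7 over all cells and 108 in B lineage cells came without WTO.3. No pool holds both groups in that setting, or without WBM_1. The replicate block gave 8 genes in mature neutrophils and 0 in B lineage cells, and could not be fitted in T and NK cells, where WTO.5 and WTY.4 were not in the fit. Correlations of like-numbered samples (3, 4 and 5) were 0.351, 0.229 and 0.000123 over all cells and 0.390, 0.198 and 0.0554 in monocytes. They were 0.287, 0.152 and 0.0717 in progenitors and 0.374, 0.0793 and 0.0347 in B lineage cells. In these classes, as in the neutrophils, number 3, whose samples share pool WBM_1, had the highest value. Fold changes turned for Egr1 (0.46 without the pool term, 0.45 with the 7 samples alone, 0.017 with the block), Ldhb (0.30, 0.29 and 0.18 in that order), Oas3 (-0.19 and -0.19), Dck (-0.32 and -0.30), Prss34 (-3.07 to 2.15 with a sample left out, highest without WTY.3, and 0.57 without WBM_1), Mcpt8 (-3.82 to 2.38 with a sample left out, highest without WTY.3), Exosc10 (0.44 without WBM_1) and Ccp110 (-0.45 without WBM_1). The macrophage share, WTO minus WTY in percentage points, turned to -0.0275 with the centred log-ratio within each cell and -0.0287 with at least 500 genes, and ran from -0.0238 to 0.0372 with a sample left out (-0.0231 without WTO.3). The share of pro-B and pre-B cells among B lineage cells turned to 0.288 and 4.17 under the same 2 settings, and ran from -10.6 to 7.51 with a sample left out (0.758 without WTY.4, 6.30 without WTO.4). The cause of these changes was not tested.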
